A study of Mus musculus with 16 samples.

Results

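Immunity-related GTPases are a family of GTP-binding proteins that mouse cells make when interferon gamma acts on them. The effector members load onto the vacuoles of pathogens such as Toxoplasma gondii and Chlamydia trachomatis and help to break them open. The regulatory members sit on the cell's own membranes and keep the effectors inactive there. In macrophages the genes are classical interferon gamma targets, and IRF1 is among the factors that switch them on. Described here are 6 genes of the family, chosen by symbol from the 15871 entries of a gene count table: the effectors Iigp1, Tgtp1 and Tgtp2, and the regulators Irgm1, Irgm2 and Igtp. All 6 were in the table and all 6 passed the filter on low counts, as did 13527 entries in all. The 6 genes were proposed with an earlier comparison of L_O with L_C in view, so their levels in those libraries are a description and carry no test.

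The study cultured peritoneal macrophages of wild-type C57BL/6 mice aged 8 weeks, elicited by an intraperitoneal injection of 6% starch, and sequenced their RNA after 48 h, with 4 libraries in each of 4 groups. H_O cells received glucose at 33 mmol/L together with oxidised low-density lipoprotein (ox-LDL), the modified lipoprotein that turns macrophages into lipid-filled foam cells. H_C cells received the same glucose without ox-LDL. L_O cells received ox-LDL without the high glucose, and L_C cells received neither. The label of L_C names 27.5 mM mannitol as an osmotic control, and those of L_O, H_C and H_O name none. A part of mannitol in the difference of L_O from L_C therefore cannot be told apart from that of ox-LDL. In H_C against L_C it cannot be told apart from that of glucose. The labels give ox-LDL at 50 mg/ml, a unit that could not be checked. They do not say whether the 4 libraries of a group came from separate mice or cultures, so the p-values below measure only the spread between these libraries, which may be technical.

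The libraries held 32596640 to 41712885 counted reads. Summed over 8 defining macrophage markers, such as Lyz2 and Cd68, the level was 19206 to 20726 CPM (read counts scaled to the size of the library) in H_O, 18360 to 18811 CPM in H_C, 18019 to 18724 CPM in L_O and 17217 to 19990 CPM in L_C. Lyz2 made up most of that sum, and of the 8 markers 2 fell and 3 rose in H_O against H_C by the test described below: Csf1r averaged 636 ± 23.4 CPM in H_O and 877 ± 19.2 CPM in H_C, and Itgam 833 ± 51.8 CPM in H_O and 505 ± 17.7 CPM in H_C. A library stood apart for the family in each ox-LDL group: H_O replicate 2 was high within H_O, and L_O replicate 1 was high within L_O. H_O replicate 2 had 36719712 reads, and 1.88% of them were mitochondrial, inside the 1.86% to 2.30% of the 4 H_O libraries. In L_C replicate 4, mitochondrial transcripts took 3.71% of reads, the highest share of the 16 libraries. L_C replicate 4 also stood apart over all genes, with a chi-square per degree of freedom of 99.4 to 104 against the other L_C libraries, where other pairs within a group had at most 19.4. Without it the median log2 fold change of the 6 genes was -1.77 in L_O against L_C and -1.39 in H_C against L_C, beside -1.74 and -1.34 with it. H_O replicate 2 also differed over all genes, though less. Its chi-square per degree of freedom was 13.4 to 19.4 against the other H_O libraries, which had 9.89 to 11.2 among themselves. Fold changes of single comparisons that rest on H_O replicate 2 or L_O replicate 1 are given with and without that library. Counts of genes without overlap, and the difference of the ox-LDL effects, were repeated without H_O replicate 2 but not without L_O replicate 1.

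The family lies in clusters. By GENCODE M21 on GRCm38, the assembly also called mm10, which the submitters' processing notes name, 5 of the 6 genes are on chromosome 11: Irgm1 at 48861968 to 48871683, Tgtp1 at 48985327 to 48994172 and Tgtp2 at 49057194 to 49064206, all on the minus strand, and Igtp at 58199556 to 58207591 and Irgm2 at 58199618 to 58222782, both on the plus strand. All 6 genes are annotated as protein coding.

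Promoter sequences of 5 of the 6 members were found in a RefSeq table on GRCm38.p6. They are shown because interferon gamma genes are known for a pair of promoter elements, the gamma-activated site (GAS) and the interferon-stimulated response element (ISRE), which IRF factors bind. Each line gives 70 bases, 5′ to 3′ on the gene's strand, and the capitals mark matches to the GAS-type motif TTCNNNGAA and the ISRE-type motif, which is GAAA, any 2 bases and GAAA again.
Tgtp1: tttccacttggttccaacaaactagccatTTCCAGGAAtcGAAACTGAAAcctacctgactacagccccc
Tgtp2: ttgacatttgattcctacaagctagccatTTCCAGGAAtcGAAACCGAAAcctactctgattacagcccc
Igtp: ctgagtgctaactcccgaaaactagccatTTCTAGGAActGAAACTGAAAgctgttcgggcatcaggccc
Irgm2: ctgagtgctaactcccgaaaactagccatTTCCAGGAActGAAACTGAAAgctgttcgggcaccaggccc
Irgm1: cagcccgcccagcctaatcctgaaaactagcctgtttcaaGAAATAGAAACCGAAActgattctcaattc
The windows are chr11:48992294-48992363 for Tgtp1, chr11:49064253-49064322 for Tgtp2, chr11:58199482-58199551 for Igtp, chr11:58214873-58214942 for Irgm2 and chr11:48871421-48871490 for Irgm1.

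In Tgtp1, Tgtp2, Igtp and Irgm2 a GAS-type match stood just upstream of an ISRE-type match, with the same order and spacing. Irgm1 held 2 overlapping ISRE-type matches and no GAS-type match in its 300-base window. Both strands were searched, from 250 bases before the RefSeq start site to 50 after it. For Tgtp1, Irgm1 and Irgm2 that window lies wholly inside the GENCODE gene, past its outermost start. Matches at other start sites, also a GAS-type match for Irgm1, were not searched for. An ISRE-type match was in 5 of the 5 member promoters and in 1131 of all 32851 promoters, or 3.44%. A GAS-type match was in 4 of the 5, against 2726 of all promoters, or 8.3%, and both were in 4 of the 5, against 149, or 0.454%. The promoters are copies of each other in part and do not count as independent: Igtp and Irgm2 differed at 2 of the 70 bases shown, and Tgtp1 and Tgtp2 at 17. A match describes the letters only and does not show that a factor bound there.

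**Figure D1:**
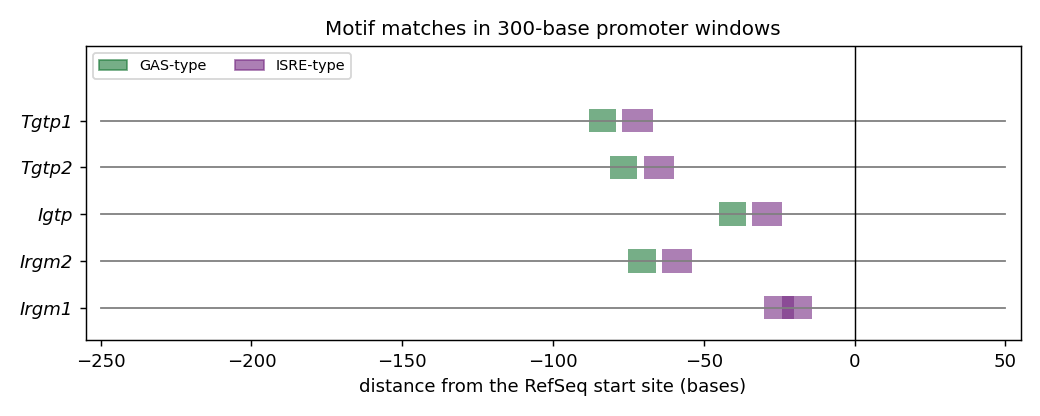
Motif matches in the promoters of 5 genes, plotted as distance in bases from the RefSeq start site (line at 0), with GAS-type matches in green and ISRE-type matches in purple. The GAS-type and ISRE-type matches sit side by side in Tgtp1, Tgtp2, Igtp and Irgm2, and the 2 ISRE-type matches of Irgm1 overlap close to its start site.

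Related genes of the family also share transcript sequence, which bears on how far their counts stand for 1 gene. Of the 50-base stretches in the annotated transcripts of Tgtp1, 79.4% also occur in those of Tgtp2, and 85.8% of the stretches of Tgtp2 occur in Tgtp1. Reads that match both copies cannot be assigned to 1 of them, and how they were counted is not given in the sources used here, so the split between Tgtp1 and Tgtp2 is uncertain. Tgtp1 took 22.7% to 27.0% of the reads of the pair in every library, a nearly fixed ratio, which the assignment of shared reads can also set. Counts of genes given below hold both copies, though they are not independent of each other. Tgtp1 also overlaps its neighbour Gm12185 by 223 exon bases. Igtp and Irgm2 overlap by 162 exon bases on the same strand, and 11.8% of the stretches of Igtp occur in Irgm2. Iigp1 shares 1.69% and Irgm1 shares 0.379% of its stretches with other genes.

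All 6 genes were at their highest in L_C, where each of the 4 libraries exceeded every library of the other groups. Levels between genes are compared per kilobase of annotated exon. In L_C, Irgm1 was the most abundant at 38.4 ± 5.20 CPM per kilobase, followed by Tgtp2 at 23.8 ± 6.69, Irgm2 at 22.5 ± 3.12, Igtp at 18.1 ± 3.57, Iigp1 at 15.7 ± 4.50 and Tgtp1 at 7.27 ± 2.14 (SD, n = 4). Irgm1 and Tgtp1 stood off from their neighbours in this order by more than the sum of both SDs, and the 4 genes between them followed each other by less than that. In H_O the order was Irgm1 at 14.4 ± 4.13, Irgm2 at 9.98 ± 2.58, Igtp at 9.67 ± 1.98, Tgtp2 at 3.84 ± 2.66, Iigp1 at 2.18 ± 1.79 and Tgtp1 at 1.12 ± 0.678 CPM per kilobase, with the 3 regulators above the 3 effectors. With all libraries, the step from Igtp to Tgtp2 was the only one of that order larger than the sum of both SDs. Without H_O replicate 2 the order was the same, at 12.4 ± 1.29 for Irgm1, 8.79 ± 1.18 for Irgm2, 8.71 ± 0.596 for Igtp, 2.52 ± 0.393 for Tgtp2, 1.30 ± 0.328 for Iigp1 and 0.782 ± 0.0862 CPM per kilobase for Tgtp1 (SD, n = 3), and every step but that from Irgm2 to Igtp was larger than the sum of both SDs. The effectors also covered a wider range over the 16 libraries. Highest over lowest CPM was 20.7-fold for Iigp1, 14.3-fold for Tgtp1 and 14.6-fold for Tgtp2, and 3.99-fold for Irgm1, 3.19-fold for Irgm2 and 2.76-fold for Igtp.

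Iigp1 encodes the effector IRGA6, a protein that polymerises on the vacuoles of Toxoplasma gondii. It lies apart from the others, on chromosome 18 at 60376027 to 60392634 on the plus strand. Its level in replicates 1 to 4 was 6.08, 28.1, 9.73 and 6.92 CPM in H_O and 14.2, 14.95, 22.2 and 16.8 CPM in H_C. It was 36.0, 18.5, 15.1 and 12.5 CPM in L_O and 62.8, 126, 90.9 and 85.9 CPM in L_C. The 4 L_C libraries were above all others, the L_O and H_C libraries overlapped, and 3 of the 4 H_O libraries were the lowest of the 16.

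Tgtp2 encodes, with its near-copy Tgtp1, the effector IRGB6. Its level was 6.64, 22.9, 8.72 and 6.82 CPM in H_O and 15.95, 19.6, 25.4 and 21.8 CPM in H_C, and 24.9, 12.2, 9.67 and 10.5 CPM in L_O and 52.7, 97.2, 71.1 and 59.1 CPM in L_C. Here H_O replicate 2 lay among the H_C libraries, and the other 3 H_O libraries lay below all 4 of them. Tgtp1 followed at a lower level, with 2.45, 6.83, 2.81 and 2.26 CPM in H_O and 5.28, 5.93, 7.48 and 6.62 CPM in H_C, and with 8.22, 3.70, 3.36 and 3.35 CPM in L_O and 17.9, 32.4, 24.8 and 18.1 CPM in L_C.

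Irgm1 encodes a regulator found on the Golgi and on lysosomes, whose loss leaves mice open to many infections. Its level was 69.7, 119, 80.6 and 66.3 CPM in H_O and 110, 110, 135 and 116 CPM in H_C, and 113, 89.9, 82.7 and 73.6 CPM in L_O and 195, 265, 225 and 208 CPM in L_C. H_O replicate 2 again fell inside the range of H_C, with the other 3 H_O libraries below it.

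Irgm2, a second regulator, had 29.9, 50.1, 37.5 and 29.9 CPM in H_O and 44.3, 46.3, 50.4 and 44.3 CPM in H_C, and 53.3, 43.7, 36.0 and 36.6 CPM in L_O and 69.6, 95.5, 78.1 and 89.3 CPM in L_C. Igtp, which encodes the regulator IRGM3 of the endoplasmic reticulum and lipid droplets, had 16.7, 25.4, 19.0 and 17.2 CPM in H_O and 23.2, 19.2, 24.4 and 21.7 CPM in H_C, and 25.3, 22.2, 20.4 and 17.8 CPM in L_O and 28.5, 46.0, 37.1 and 34.9 CPM in L_C. For Igtp, H_O, H_C and L_O overlapped throughout, and L_C stood above them.

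**Figure D2:**
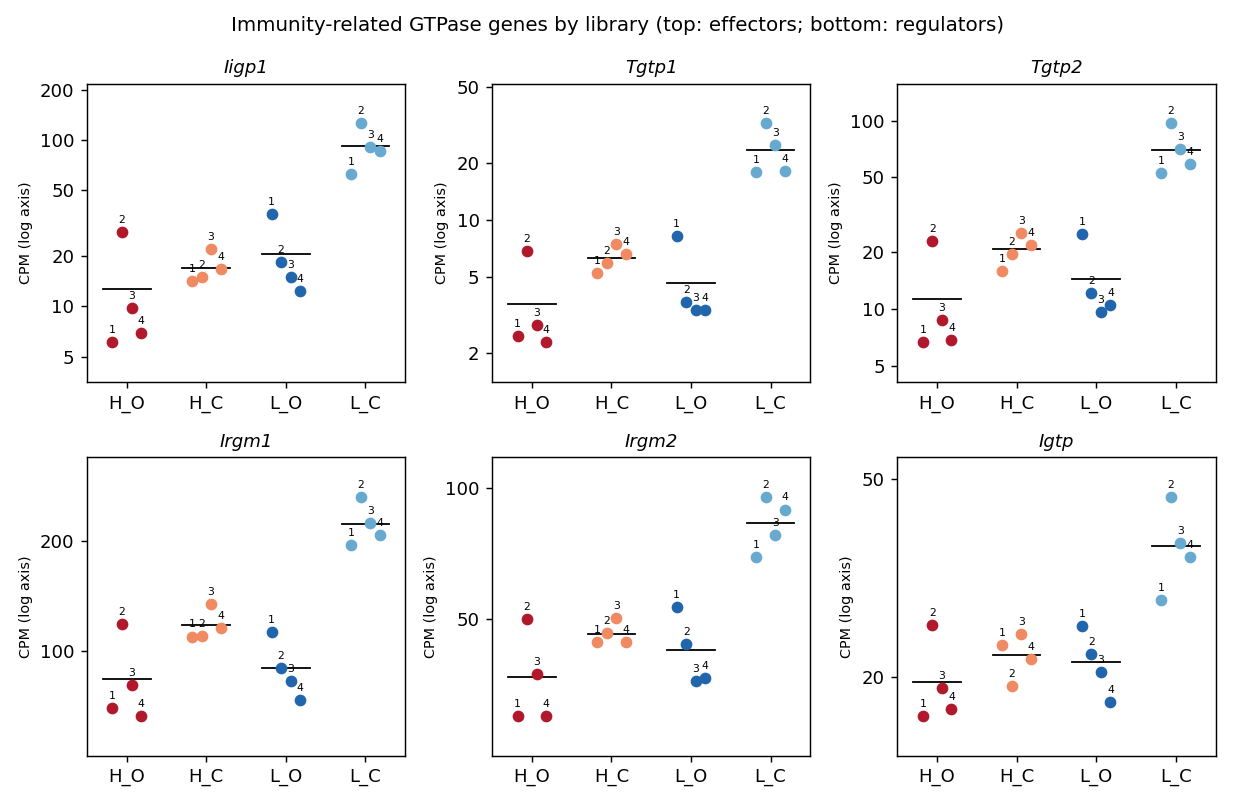
CPM on a log axis in each of the 16 libraries for 6 genes, effectors above and regulators below, with the replicate number beside each point and a line at the group mean. Every gene is highest in the 4 L_C libraries, and H_O replicate 2 and L_O replicate 1 are the highest library of their own group in all 6 panels.

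The effect of ox-LDL in high glucose, H_O against H_C, was tested. Its libraries were not part of the comparison of L_O with L_C that was in view when the genes were proposed. Earlier results of these data were known, so the test may not be independent of the choice of genes. Irgm1 fell: it averaged 83.8 ± 24.0 CPM in H_O and 118 ± 11.9 CPM in H_C (SD, n = 4 each), a log2 fold change of -0.49 ± 0.16 (SE; edgeR's quasi-likelihood test with Benjamini-Hochberg adjustment over all 13527 entries, adjusted p = 0.0327). It was the single member called of 6, against 11.5% of all entries called lower. The call was lost when H_O replicate 1, 3 or 4 or H_C replicate 3 or 4 was left out, with the adjusted p for Irgm1 between 0.0608 and 0.114. The other 5 genes had lower means in H_O and did not pass. Tgtp2 averaged 11.3 ± 7.82 CPM in H_O and 20.7 ± 3.97 CPM in H_C, with a log2 fold change of -0.88 ± 0.36 (edgeR adjusted p = 0.0924). For Tgtp1 it was -0.82 ± 0.34 (edgeR adjusted p = 0.101). Iigp1 averaged 12.7 ± 10.4 CPM in H_O and 17.1 ± 3.61 CPM in H_C, with a log2 fold change of -0.43 ± 0.41 (edgeR adjusted p = 0.53). The regulators Irgm2, at -0.33 ± 0.15 (edgeR adjusted p = 0.139), and Igtp, at -0.18 ± 0.15 (edgeR adjusted p = 0.463), had the smallest differences. Every library of H_O was below every library of H_C in 0 of the 6 genes, against 14.8% of all entries.

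These values rest on H_O replicate 2. Without it, 5 of the 6 genes fell by the same test, against 10.4% of all entries called lower, and all but Igtp were past the threshold. Tgtp2 then averaged 7.39 CPM in the 3 remaining H_O libraries and 20.7 CPM in H_C, a log2 fold change of -1.49 ± 0.29 (edgeR adjusted p = 0.00139). The log2 fold change was -1.34 ± 0.30 for Tgtp1 (edgeR adjusted p = 0.00384), -1.17 ± 0.32 for Iigp1 (edgeR adjusted p = 0.0153), -0.70 ± 0.13 for Irgm1 (edgeR adjusted p = 0.000739) and -0.51 ± 0.13 for Irgm2 (edgeR adjusted p = 0.0105). Igtp was at -0.33 ± 0.14 and still did not pass (edgeR adjusted p = 0.123). In these 7 libraries, H_O was below H_C without overlap in 6 of the 6 genes, against 17.0% of all entries. No label marks H_O replicate 2 as different, and leaving it out was decided after its values were seen.

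In low glucose, where the genes were chosen, all 6 were lower in L_O than in L_C with no overlap, against 13.9% of all entries with L_O below L_C. The effectors had the larger differences. Iigp1 averaged 20.5 ± 10.6 CPM in L_O and 91.4 ± 26.2 CPM in L_C. Tgtp1 averaged 4.66 ± 2.38 CPM in L_O and 23.3 ± 6.86 CPM in L_C, and Tgtp2 averaged 14.3 ± 7.15 CPM in L_O and 70.0 ± 19.7 CPM in L_C. Their log2 fold changes were -2.16 ± 0.40 for Iigp1, -2.33 ± 0.34 for Tgtp1 and -2.29 ± 0.36 for Tgtp2 (SE). Among the regulators, Irgm1 averaged 89.8 ± 16.8 CPM in L_O and 223 ± 30.2 CPM in L_C, with a log2 fold change of -1.31 ± 0.16. Irgm2 was at -0.97 ± 0.15 and Igtp at -0.77 ± 0.15. Without L_O replicate 1 the values were -2.57 for Iigp1, -2.75 for Tgtp1, -2.69 for Tgtp2, -1.44 for Irgm1, -1.10 for Irgm2 and -0.86 for Igtp.

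H_C against L_C, which differ in glucose and in the mannitol named for L_C, gave a similar picture. This comparison shares the L_C libraries with the one that chose the genes, so it too is given without a test. All 6 genes were lower in H_C than in L_C without overlap, against 9.82% of all entries. The log2 fold change was -2.42 ± 0.41 for Iigp1, -1.88 ± 0.33 for Tgtp1, -1.76 ± 0.35 for Tgtp2, -0.92 ± 0.16 for Irgm1, -0.84 ± 0.15 for Irgm2 and -0.73 ± 0.15 for Igtp. With ox-LDL present in both groups, the differences were smaller and depended on single libraries. In H_O against L_O the log2 fold change was -0.69 ± 0.40 for Iigp1, -0.37 ± 0.34 for Tgtp1, -0.34 ± 0.36 for Tgtp2, -0.10 ± 0.16 for Irgm1, -0.20 ± 0.15 for Irgm2 and -0.13 ± 0.15 for Igtp, and the 2 groups overlapped in all 6 genes, against 9.52% of all entries with H_O below L_O without overlap. Without H_O replicate 2, H_O was below L_O without overlap in 3 of the 6 genes, the effectors Iigp1, Tgtp1 and Tgtp2, against 11.8% of all entries. Iigp1 was at -1.44 without H_O replicate 2 and at -0.27 without L_O replicate 1. Without L_O replicate 1 the values for Tgtp1, Tgtp2 and Irgm1 were 0.047, 0.058 and 0.030, above 0, and without H_O replicate 2 they were -0.89, -0.95 and -0.31.

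**Figure D3:**
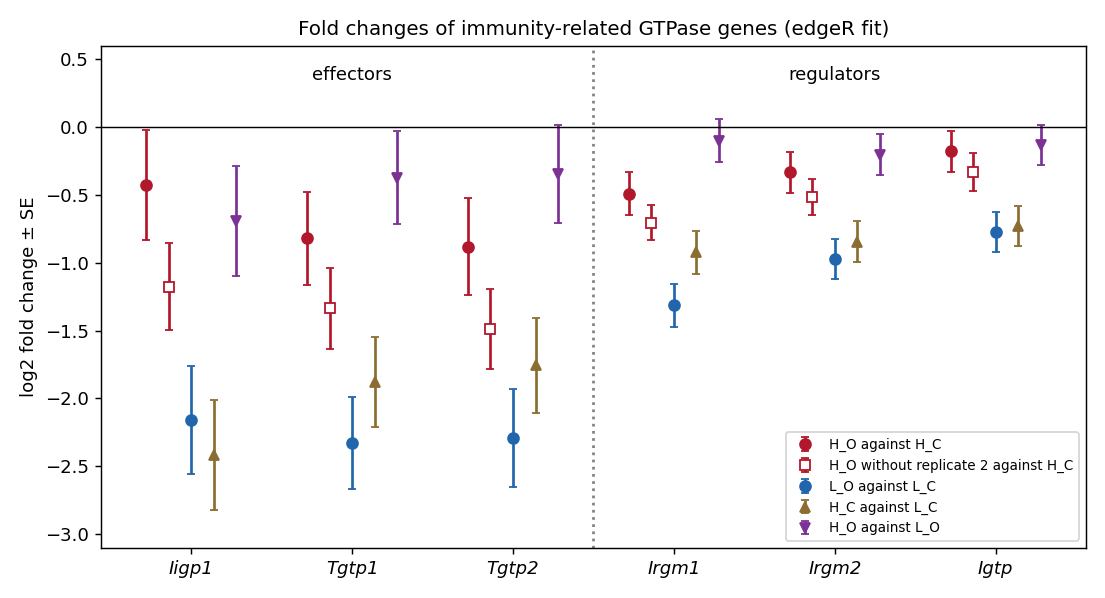
Log2 fold change with its SE (bars) from the edgeR fit for 6 genes, effectors on the left and regulators on the right, in 4 comparisons and in H_O against H_C without H_O replicate 2 (open squares). In L_O against L_C and in H_C against L_C the effectors lie between -2.42 and -1.76 and the regulators between -1.31 and -0.73.

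The difference of H_O against H_C from L_O against L_C holds the comparison on which the genes were chosen, so it is described without a test. It was 0.60 to 1.73 on the log2 scale for the 6 genes and 0.44 to 0.99 without H_O replicate 2. It was not fitted without L_O replicate 1. A positive value means a smaller drop from H_C to H_O than from L_C to L_O. The drop from L_C to L_O may hold a part of the mannitol named for L_C, which cannot be told apart from that of ox-LDL. With all libraries it was 1.73 ± 0.56 for Iigp1, 1.51 ± 0.47 for Tgtp1, 1.41 ± 0.50 for Tgtp2, 0.82 ± 0.22 for Irgm1, 0.64 ± 0.21 for Irgm2 and 0.60 ± 0.21 for Igtp (SE).

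The 16 libraries were ordered by the mean of the 6 genes. The mean of their centred log2 CPM, with Tgtp1 and Tgtp2 summed, was highest in L_C replicate 2 at 1.55 and lowest in H_O replicate 1 at -1.10. After the 4 L_C libraries came L_O replicate 1 at 0.21, H_O replicate 2 at 0.11 and H_C replicate 3 at 0.10. The last places were held by H_O replicates 3, 4 and 1. Reads of Ifng, the gene of interferon gamma itself, were counted 0, 13, 0 and 0 times in the 4 H_O libraries, 0, 10, 2 and 2 times in H_C, 0, 0, 2 and 0 times in L_O and 11, 57, 16 and 16 times in L_C. H_O replicate 2 and L_C replicate 2 had the most Ifng reads of their groups, and L_O replicate 1 had 0. H_C replicate 2 had the most of H_C, at 10 reads. Its family mean of -0.24 was below that of H_C replicate 3, which had 2 reads. A count of 0 allows up to 3 reads per library, a limit that covers counting error only. The interferon beta gene Ifnb1 and the interferon alpha genes Ifna1, Ifna2, Ifna4 and Ifna5 had no entry in the count table, so their levels are not known.

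**Figure D4:**
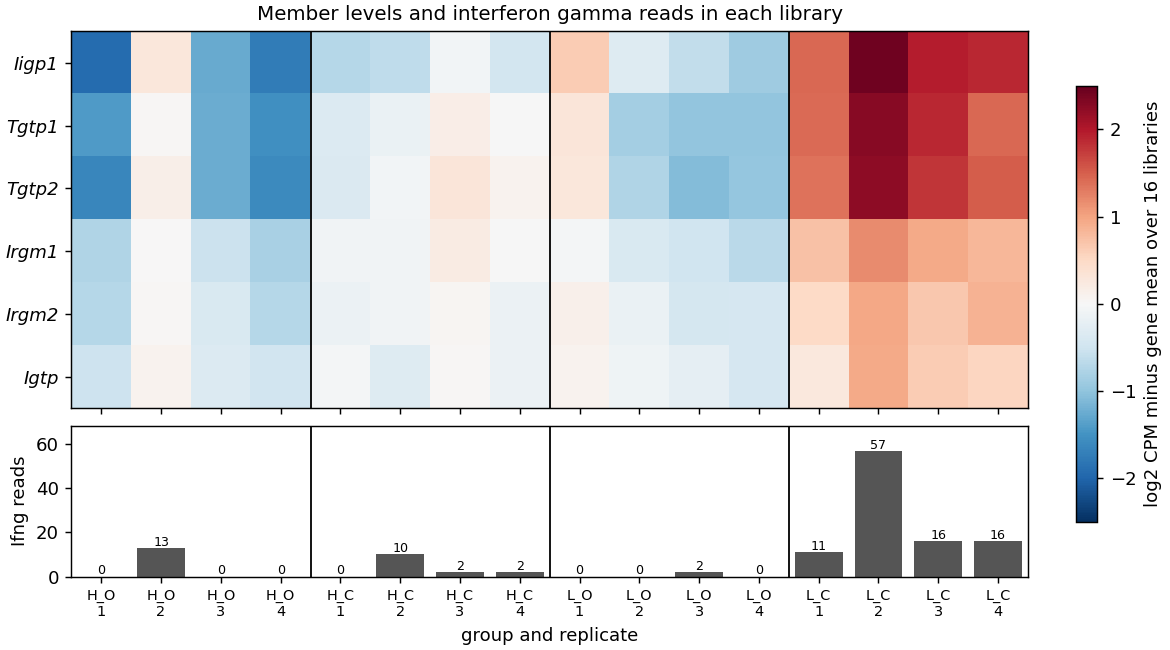
Log2 CPM minus the gene's mean over 16 libraries (colour, red higher and blue lower) for 6 genes, above the number of Ifng reads in each library (bars). L_C replicate 2, with 57 Ifng reads, is the reddest column, and H_O replicates 1, 3 and 4, with 0 Ifng reads, are the bluest. L_O replicate 1, with 0 Ifng reads, is the reddest of L_O. H_C replicate 2, with 10, is bluer than H_C replicate 3, with 2.

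Macrophages make little interferon gamma, and T and NK cells are its usual source, so their markers were read beside the family. Of 16 T and NK markers 15 were in the table. Their summed level was 17.2 to 26.2 CPM in H_O, 41.1 to 52.9 CPM in H_C, 13.7 to 15.4 CPM in L_O and 31.1 to 43.6 CPM in L_C, and much of it was Ccl5, which macrophages also make. Without Ccl5 the sum was 7.14 to 10.7 CPM in H_O, 9.57 to 14.5 CPM in H_C, 6.08 to 8.07 CPM in L_O and 11.7 to 17.9 CPM in L_C. Most of the markers had their highest mean in L_C, as the family did: Cd3e, Cd3g, Cd2, Lck, Thy1, Il2rb, Tbx21, Gzma, Gzmb and Prf1. The T cell marker Cd3e averaged 0.38 CPM in H_O, 0.472 CPM in H_C, 0.489 CPM in L_O and 1.12 CPM in L_C. Ccl5, Nkg7, Cd3d and Eomes were highest in H_C. Only the NK cell marker Klrb1c was highest in H_O, with 0.505 CPM in H_O, 0.269 CPM in H_C, 0.183 CPM in L_O and 0.0998 CPM in L_C. Cd3e and Klrb1c had few reads, so these means are uncertain. In all, 0 to 4 of the 15 markers were at 0 in a library. H_O replicate 2 had the highest sum of H_O, at 26.2 CPM, and L_C replicate 2 the highest of L_C, at 43.6 CPM. Without Ccl5, H_O replicate 2 was at 10.7 CPM and H_O replicate 1, the lowest library for the family, at 10.3 CPM. The summed level of 9 small macrophage and monocyte markers was 416 to 444 CPM in H_O, 821 to 855 CPM in H_C, 516 to 559 CPM in L_O and 1040 to 1109 CPM in L_C, most of it from Itgax, with a mean of 508 CPM over all libraries, and Clec12a, with 150.1 CPM. That of 10 large peritoneal macrophage markers was 48.9 to 53.2 CPM in H_O, 68.0 to 78.3 CPM in H_C, 48.9 to 54.8 CPM in L_O and 72.7 to 110.2 CPM in L_C. That of 6 dendritic cell markers was 1.84 to 2.64 CPM in H_O, 2.84 to 4.40 CPM in H_C, 1.18 to 2.61 CPM in L_O and 4.16 to 5.72 CPM in L_C. For 7 mesothelial and fibroblast markers the sum was 20.4 to 66.8 CPM in H_O and 20.98 to 122.8 CPM in H_C. It was 11.5 to 20.3 CPM in L_O and 27.4 to 47.7 CPM in L_C. H_O replicate 2 and H_C replicate 3, the highest of their groups for the family, held the 66.8 CPM and the 122.8 CPM. L_O replicate 1, the highest of L_O for the family, had 11.5 CPM, the lowest of L_O. H_O replicate 1, the lowest library for the family, was at 49.6 CPM. The part of these cells in the level of the 6 genes was not tested. In such bulk samples, fewer cells of a type and less RNA per cell cannot be told apart.

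Of the other genes listed for the family, 11 were tested, and 5 fell and 0 rose in H_O against H_C, where 11.5% of all entries were called lower and 10.4% higher. The median of their log2 fold changes was -0.42, against 0.0089 over all entries. Without H_O replicate 2, 7 fell and the median was -0.53, with 10.4% of all entries called lower and 8.87% higher. The list holds Gm12216, which the gene tables used here do not annotate as a member of the family. Gm12216 is among the 7 that fell without H_O replicate 2, at very low levels. It averaged 0.106 CPM in the remaining H_O libraries and 0.415 CPM in H_C (edgeR adjusted p = 0.0245). The median was -0.91 in L_O against L_C and -0.66 in H_C against L_C. 9930111J21Rik1 and 9930111J21Rik2, which is also called Irgb5, fell by 0.48 ± 0.06 (edgeR adjusted p = 5.14e-06) and by 0.41 ± 0.12 (edgeR adjusted p = 0.0181). 9930111J21Rik1 averaged 65.6 ± 1.84 CPM in H_O and 91.5 ± 7.37 CPM in H_C. Gm5431, or Irgb9b8, fell by 0.40 ± 0.11 (edgeR adjusted p = 0.0143). Irgq, a distant relative, fell by 0.22 ± 0.05 (edgeR adjusted p = 0.00373). Gm4841, or Ifgga3, was called lower at very low levels, 0.0518 CPM in H_O and 0.367 CPM in H_C (edgeR adjusted p = 0.0214). Ifi47, or Irgd, averaged 32.7 ± 11.9 CPM in H_O and 47.3 ± 3.46 CPM in H_C, with a log2 fold change of -0.53 ± 0.20 (edgeR adjusted p = 0.0637), and passed without H_O replicate 2 at -0.81 (edgeR adjusted p = 0.00182). Gm4951, or Ifgga2, was at -0.12 ± 0.33, F830016B08Rik, or Ifgga4, at 0.42 ± 0.31, Gm12185 at -0.49 ± 0.31, and Gm12216 at -0.42 ± 0.67, none past the threshold with all libraries. Irgc1, at 0.0954 CPM in H_O and 0.234 CPM in H_C, did not pass either.

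Of 17 genes of interferon gamma signalling, 6 fell and 0 rose in H_O against H_C, against 11.5% of all entries called lower and 10.4% higher, and the median was -0.19. Without H_O replicate 2, 9 fell, against 10.4% of all entries called lower, and the median was -0.28. The largest fall was that of Irf1, the interferon-induced transcription factor that acts on many of these promoters, which averaged 71.5 ± 19.1 CPM in H_O and 136 ± 14.9 CPM in H_C, a log2 fold change of -0.93 ± 0.16 (edgeR adjusted p = 0.000329). Ifngr2, a subunit of the interferon gamma receptor, averaged 135 ± 7.75 CPM in H_O and 193 ± 9.96 CPM in H_C and fell by 0.52 ± 0.07 (edgeR adjusted p = 2.8e-05). The other subunit, Ifngr1, averaged 148 ± 9.24 CPM in H_O and 148 ± 4.74 CPM in H_C, with a log2 fold change of -0.0013 ± 0.047 (edgeR adjusted p = 0.991). Irf8, a macrophage transcription factor, fell by 0.42 ± 0.07 (edgeR adjusted p = 0.000119). The kinase gene Jak1 fell by 0.15 ± 0.04 (edgeR adjusted p = 0.0189), and Nlrc5, the activator of MHC class I genes, by 0.28 ± 0.09 (edgeR adjusted p = 0.0296). Ptpn6, which encodes the phosphatase SHP-1, an inhibitor of this signalling, fell by 0.44 ± 0.07 (edgeR adjusted p = 8.26e-05).

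Ciita, the activator of MHC class II genes, averaged 17.5 ± 8.17 CPM in H_O and 20.5 ± 1.08 CPM in H_C. Its log2 fold change was -0.23 ± 0.24 with all libraries (edgeR adjusted p = 0.565) and -0.59 without H_O replicate 2 (edgeR adjusted p = 0.0338). The inhibitor Socs3 was at -0.29 ± 0.14 (edgeR adjusted p = 0.145) and at -0.42 without that library (edgeR adjusted p = 0.0347). Jak2, Stat3, Irf2, Pias1, Ptpn2, Socs1 and Batf2 did not pass either way, with log2 fold changes of -0.06, -0.08, -0.15, -0.10, -0.19, -0.05 and -0.02 over all libraries.

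**Figure D5:**
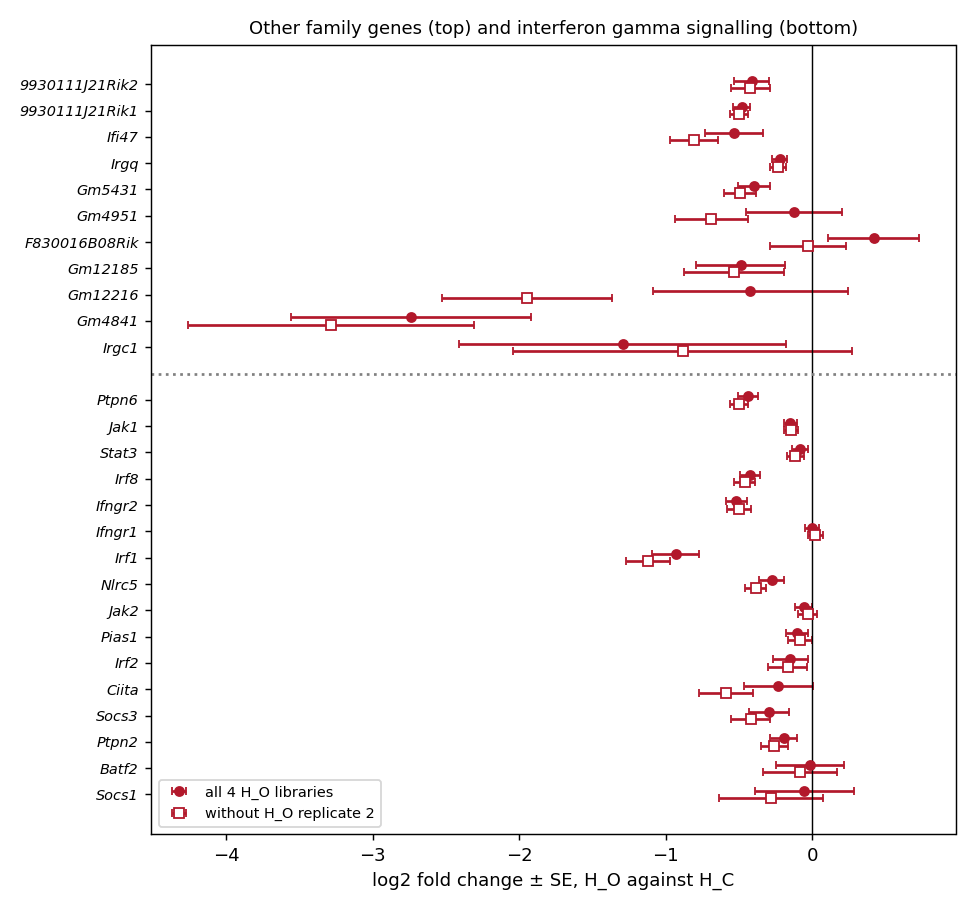
Log2 fold change with its SE (bars) in H_O against H_C for 11 other genes listed for the family (top) and 16 of the 17 genes of interferon gamma signalling (bottom), with all 4 H_O libraries (filled circles) and without H_O replicate 2 (open squares), each block ordered from high to low mean level. Irf1 is the lowest of the signalling genes at -0.93, and Ifngr1 lies at 0.

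Other interferon targets were counted beside the family, where 11.5% of all entries were called lower and 10.4% higher, or 10.4% and 8.87% without H_O replicate 2. Of 31 tested interferon gamma targets outside the family, 15 fell and 1 rose in H_O against H_C, and the median was -0.57. Without H_O replicate 2, 17 fell and 1 rose. Among the 6 most abundant, Cd274, which encodes PD-L1, fell by 0.81 ± 0.07 (edgeR adjusted p = 1.89e-07), and Cybb, a subunit of the phagocyte NADPH oxidase, by 0.80 ± 0.09 (edgeR adjusted p = 1.41e-06). Tapbp fell by 0.68 ± 0.09, B2m by 0.44 ± 0.11 and Psmb8 by 0.37 ± 0.09, all genes of MHC class I presentation. Slc11a1, a metal transporter of phagosomes, was the 1 that rose, at 703 ± 20.6 CPM in H_O and 541 ± 13.4 CPM in H_C, a log2 fold change of 0.38 ± 0.04 (edgeR adjusted p = 7.64e-07). Of 32 genes known as type I interferon targets, 18 fell and 0 rose, with a median of -0.48, and 20 fell without H_O replicate 2. Oas3, an antiviral sensor of double-stranded RNA, fell by 1.52 ± 0.08 (edgeR adjusted p = 1.2e-10). Parp14 fell by 0.36 ± 0.08, Ifi204 by 0.42 ± 0.11 and Irf7 by 0.62 ± 0.12, while Trim30a was at -0.10 ± 0.06 and Stat2 at -0.14 ± 0.11. The lists were drawn up with earlier results of these data known, and no test of a list as a set was run, so these counts are a description.

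Immunity-related GTPases reach their target membranes with the help of autophagy proteins, chiefly the ATG5, ATG12 and ATG16L1 conjugation system and the GABARAP proteins. Of 16 such genes 6 fell and 1 rose in H_O against H_C, against 11.5% of all entries called lower and 10.4% higher. The median was -0.05, and the counts were the same without H_O replicate 2. Atg7 fell by 0.29 ± 0.06 (edgeR adjusted p = 0.00224), Gabarapl1 by 0.32 ± 0.06 (edgeR adjusted p = 0.000742), Map1lc3b by 0.13 ± 0.04 (edgeR adjusted p = 0.0255) and the adaptor gene Tax1bp1 by 0.40 ± 0.04 (edgeR adjusted p = 8.44e-07). The gene that rose, Atg5, was named after its value was seen, with a log2 fold change of 0.22 ± 0.05 (edgeR adjusted p = 0.00403). Its partners Atg12 and Atg16l1 were also named afterwards. Atg12 averaged 106.8 ± 4.10 CPM in H_O and 133.8 ± 4.88 CPM in H_C, and Atg16l1 37.7 ± 2.10 CPM in H_O and 34.1 ± 1.28 CPM in H_C. Without H_O replicate 2, Atg12 was at -0.31 ± 0.06 (edgeR adjusted p = 0.00105) and Atg16l1 at 0.16 ± 0.07 (edgeR adjusted p = 0.141). Sqstm1 at 0.05 ± 0.05 and Gabarap at 0.06 ± 0.08 did not pass.

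The genes whose pattern over the 16 libraries was most like the mean of the family were ranked by the root mean square difference of centred log2 CPM, among 9271 annotated genes with a mean of at least 5 CPM. The closest was Zbp1, a sensor of Z-form nucleic acids, with a difference of 0.147, against a median of 0.807 over all ranked genes. It averaged 12.9 ± 4.95 CPM in H_O, 21.1 ± 4.20 CPM in H_C, 16.9 ± 4.00 CPM in L_O and 47.3 ± 6.03 CPM in L_C. Next came Gbp6, a guanylate-binding protein gene, at 0.166, Gm4070 at 0.182, Ifi47 at 0.19, Gvin1, a very large interferon-inducible GTPase gene, at 0.194, Gm43302 at 0.202, Calhm6 at 0.21 and Irf1 at 0.22. Within the family the difference from its own mean was 0.21 for Irgm1, 0.297 for Irgm2, 0.402 for Igtp, 0.404 for the sum of Tgtp1 and Tgtp2 and 0.524 for Iigp1. All points share the same 16 libraries, and the likeness is a description of them.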

How the data were processed

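Per the labels, RNA was isolated with Trizol and sequenced in 16 libraries, 4 in each of 4 groups. The authors deposited raw read counts per gene; per the submitters' processing notes, HISAT2, DESeq2 and the mm10 build were used, while the counting tool, annotation and strand setting are not given in the sources used here. Entries with no annotated gene symbol numbered 1594 of 15871.

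The counts were fitted with edgeR 4.0.16 in R 4.3.3: filterByExpr, TMM scaling, a mean per group over all 16 libraries (12 residual degrees of freedom), the two-sided quasi-likelihood test and Benjamini-Hochberg adjustment over 13527 entries, with calls at an adjusted p under 0.05. The SE of a log2 fold change is its size divided by the square root of F. CPM values use TMM library sizes. The 6 genes and all lists were chosen with earlier results of these data known. The text names all 6 genes, up to 6 genes of highest mean level per list of interferon targets and autophagy factors, every tested gene of the 2 lists of other family and interferon gamma signalling genes except 1 that is not reported here, and the 8 genes most alike in pattern. Atg5, Atg12 and Atg16l1 were named in addition, after their values were seen. DESeq2 1.42.0 and limma 3.58.1 served as alternatives, with other scalings, filters and left-out libraries. Libraries of a group differed from each other by more than sampling noise (chi-square per degree of freedom 6.59 to 104, with every value above 19.4 from a pair with L_C replicate 4). The script was tested on simulated data. With library totals in place of TMM, 2176 entries were called higher and 1166 lower in H_O against H_C (65.1% higher), against 1406 and 1556 with TMM (47.5% higher). Sequences and start sites are from RefSeq on GRCm38.p6 and exon lengths from GENCODE M21 on GRCm38.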

Additional observations from a re-analysis of the deposited data

Results flagged for a closer look

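In 24 checks, 1 for each gene in each group of 4 libraries, 5 values stood apart from the others of their group. Chance gives about 1 in 20 if values are normally spread, and the CPM values were checked without a log scale. The checks are also not independent, since all 5 values come from H_O replicate 2 or L_O replicate 1. In H_O, replicate 2 was far above the next library for Iigp1 (28.1 CPM, the next at 9.73), Tgtp1 (6.83 CPM, the next at 2.81) and Tgtp2 (22.9 CPM, the next at 8.72). In L_O, replicate 1 was far above the next library for Tgtp1 (8.22 CPM, the next at 3.70) and Tgtp2 (24.9 CPM, the next at 12.2). Reads of Tgtp1 and Tgtp2 cannot be told apart in large part, so their flags count as 1 observation in each group.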

How the results depend on the processing

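The 1 call among the 6 genes in H_O against H_C became 0 with library totals, 2 with limma-voom and 4 with limma-voom and sample quality weights, the last chosen after seeing the data. Leaving out 1 library at a time gave 0 to 5 calls, 5 without H_O replicate 2 and 0 without H_O replicate 1, 3 or 4 or H_C replicate 3 or 4. It was 1 with every other setting run, DESeq2 among them. Summing Tgtp1 and Tgtp2 moved the median of L_O against L_C to -1.31 (from -1.74) and that of H_C against L_C to -0.92 (from -1.34), since 1 effector value fewer then enters it. The median of H_O against L_O was -0.27, and -0.64 to -0.01 with 1 library left out. Of the 640 alternative values of 24 single-gene differences, 3 changed sign, all in H_O against L_O: with 1 library left out, Tgtp1 lay between -0.89 (without H_O replicate 2) and 0.047 (without L_O replicate 1), Tgtp2 between -0.95 and 0.058 and Irgm1 between -0.31 and 0.030, at the same libraries. Calls among the listed genes were 39 to 61 (52) and over all entries 2476 to 4152 (2962). With the replicate number as a block, 1 of the 6 was called and the medians were -1.72, -1.31 and -0.33 for L_O against L_C, H_C against L_C and H_O against L_O. Libraries with the same number did not vary together: r lay between -0.164 and 0.0666, 0 of 24 pairs were over 0.1, and 3 of 16 libraries correlated best with their own number. The shared number is therefore no pairing. Ifng, Gm4841, Gm12216 and Irgc1 had few reads, which leaves the sizes of their fold changes uncertain.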
